A study of Rattus norvegicus with 14 samples.

Results

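A group of 10 genes that carry fatty acids into or through the cell was followed in the PCCL3 rat thyroid cell line: the membrane receptor Cd36, the fatty acid binding proteins Fabp1, Fabp3, Fabp4 and Fabp5, the fatty acid transport proteins Slc27a1, Slc27a2, Slc27a3 and Slc27a4, and the acyl-CoA synthetase Acsbg1. They were taken by name. Of these, 9 had a row among the 16816 genes of the count table, and Fabp5 is not analysed here. Counts per gene were compared in PPFP cells, which stably express a Myc-tagged human PAX8-PPARG fusion protein (PPFP, found in a subset of thyroid carcinomas), and in EV cells, which carry the empty vector. Each line was cultured for 16 h with 1 μM pioglitazone, a thiazolidinedione agonist of PPARG, or with its DMSO vehicle, giving 4 groups of 3 libraries from 3 experiments and 12 libraries in all. All groups therefore share the PCCL3 background and a stable transfection, and each line is 1 transfected line, so a difference between PPFP cells and EV cells cannot be told apart from a difference between these lines.

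Long-chain fatty acids enter cells with the help of CD36, a scavenger receptor that binds fatty acids and lipoproteins, and of the fatty acid transport proteins encoded by the Slc27a genes, which are membrane-bound acyl-CoA synthetases. Inside the cell, small fatty acid binding proteins hold the hydrophobic chain in solution, and acyl-CoA synthetases join it to coenzyme A, which traps it for storage or oxidation. Several of these genes, Fabp4 and Cd36 among them, are known targets of PPARG in adipocytes, where they belong to the program of fat cell differentiation. Fabp1 is abundant in liver and intestine, Fabp3 in heart and muscle, and Slc27a2 in liver and kidney.

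The 12 libraries held between 23724703 and 35240176 counts each. Counts assigned to Pparg were higher in the PPFP line than in the EV line when no pioglitazone was given (edgeR adjusted p = 3.63e-06). The PPFP line held 53.6 ± 6.56 CPM of it and the EV line 1.61 ± 0.322 (mean and SD of 3 libraries). CPM are counts scaled to the same library total. Reads of the human fusion transcript and of rat Pparg cannot be told apart in these counts, so the difference cannot be assigned to the rat gene. Without pioglitazone, rat Pax8 stood at 738 ± 55.2 CPM in the EV line against 688 ± 15.4 CPM in the PPFP line (SD, n = 3 each). The 12 thyrocyte markers summed to between 10495 and 14941 CPM in a library, most of it Tg, and all passed the filter on low counts in both comparisons of the lines. Single markers moved with the line: without pioglitazone 10 of the 12 were called, 4 higher and 6 lower in PPFP cells, against 22.0% and 23.1% of all genes, among them Duox2 (log2 fold change 2.21), Slc5a5 (-1.73) and Foxe1 (-2.72), and with pioglitazone 4 were higher and 7 lower, against 26.3% and 26.4%. Slc26a4, among those higher in both comparisons, had at most 8 counts in an EV library and passed the filter only through the PPFP libraries. The part of these markers in the differences given for other genes was not tested. Of 7 adipocyte markers, Lep and Retn had no count in any library, while the summed level of the list was 26.0 to 30.9 CPM in EV cells and 747 to 1063 CPM in PPFP cells over both treatments, and Cfd made up most of it in PPFP cells. Of the 5 adipocyte markers tested, all were called higher in PPFP than in EV cells without pioglitazone, against 22.0% of all genes, and 4 with it, against 26.3%, where Adipoq was not called (log2 fold change 0.36, edgeR adjusted p = 0.562). Of these, Plin1 and Cidec, with at most 4 counts in an EV library, passed the filter only through the PPFP libraries. In PPFP cells 4 of the 5 rose with the drug, where 7.63% of all genes rose and 7.13% fell, while Adipoq fell from 4.50 ± 0.154 to 2.39 ± 0.547 CPM (SD, n = 3 each, edgeR adjusted p = 0.0241). Markers of other cell types were low, and some moved with the line. Hepatocyte markers summed to at most 0.128 CPM in EV and 1.13 to 2.41 CPM in PPFP libraries, where nearly all of it was Serpina1, while Alb had no count in any PPFP library. Endothelial markers summed to 0.215 to 1.00 CPM in EV and 0.881 to 1.59 CPM in PPFP libraries, and Vwf was higher in PPFP cells without pioglitazone (log2 fold change 1.17, edgeR adjusted p = 0.0382). Macrophage markers summed to 5.27 to 7.09 CPM in EV and 4.37 to 5.95 CPM in PPFP libraries, with Cd68 higher in PPFP cells without (0.86, edgeR adjusted p = 0.0480) and with pioglitazone (1.18, adjusted p = 0.0156) and Cd14 lower with it (-0.44, adjusted p = 0.0382). Their part in the results was not tested. Libraries 2 and 3 of PPFP cells with pioglitazone differed far less than any other pair of replicates, with a chi-square per degree of freedom of 1.70 against 17.8 to 113 for the other pairs. They were kept as separate libraries. For the tested fatty acid uptake and binding genes, and for called genes of the other lists, results were also computed with both averaged as 1 library. This was not done for the markers other than Pax8, nor for fits without the filter on low counts.

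The genes fell into those with counts in every PPFP library and those near or at 0. Slc27a1, Slc27a3 and Slc27a4 had counts in all 12 libraries and Acsbg1 in 10. These 4 genes passed the filter and were tested with edgeR's quasi-likelihood test over all genes, with Benjamini-Hochberg adjusted p-values, and a gene was called at an adjusted p under 0.05. The other 5 genes in the table had at most 5 counts in any library. The level of each gene is given in CPM after TMM scaling, which is not divided by transcript length, so levels are compared between groups and not between genes. Lower RNA per cell and fewer expressing cells cannot be told apart in such bulk counts.

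The stretch around the start of transcription is shown for the 3 genes that differed between the lines and for Fabp1, which stayed at 0. The sequences are from RefSeq (GRCr8), 250 bases before to 50 bases after the annotated start, and 8 of the 10 genes were matched. No entry was found for Fabp4 and Fabp5. Capitals mark letters of a nuclear receptor half-site or a pair of half-sites, searched on both strands as AGGTCA, as GGGTCA and as the direct repeats AGGNCANAGGNCA and AGGTCANAGGTCA with 1 base between the half-sites, the arrangement that PPARG and its partner RXR are known to bind.
Acsbg1, chr8:63943229-63943528, minus strand: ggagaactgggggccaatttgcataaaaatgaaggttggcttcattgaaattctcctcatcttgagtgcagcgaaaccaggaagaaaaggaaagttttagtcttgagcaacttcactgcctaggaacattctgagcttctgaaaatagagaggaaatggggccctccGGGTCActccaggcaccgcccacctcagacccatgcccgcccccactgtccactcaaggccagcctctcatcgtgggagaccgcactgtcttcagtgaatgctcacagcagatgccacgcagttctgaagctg
Slc27a3, chr2:178155454-178155753, minus strand: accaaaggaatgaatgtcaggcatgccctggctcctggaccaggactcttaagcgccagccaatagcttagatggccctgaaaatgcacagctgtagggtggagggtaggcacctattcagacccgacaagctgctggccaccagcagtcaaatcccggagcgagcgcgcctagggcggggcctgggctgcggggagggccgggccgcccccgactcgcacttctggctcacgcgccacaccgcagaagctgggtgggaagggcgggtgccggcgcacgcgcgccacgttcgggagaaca
Slc27a4, chr3:33472653-33472952, plus strand: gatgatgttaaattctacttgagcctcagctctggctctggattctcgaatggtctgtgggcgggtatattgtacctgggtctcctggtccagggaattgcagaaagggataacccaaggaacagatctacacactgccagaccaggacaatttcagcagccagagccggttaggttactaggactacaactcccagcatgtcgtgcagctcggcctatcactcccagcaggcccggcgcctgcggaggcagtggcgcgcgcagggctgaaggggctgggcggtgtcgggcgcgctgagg
Fabp1, chr4:104749090-104749389, plus strand: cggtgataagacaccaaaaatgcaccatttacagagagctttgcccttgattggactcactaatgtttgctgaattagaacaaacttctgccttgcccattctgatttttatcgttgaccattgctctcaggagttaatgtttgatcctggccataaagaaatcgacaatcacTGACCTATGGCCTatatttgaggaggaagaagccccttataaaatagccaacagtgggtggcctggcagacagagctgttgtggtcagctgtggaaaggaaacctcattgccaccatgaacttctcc

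The Acsbg1 window held GGGTCA, on the strand of the gene and starting 83 bases before the start of transcription. Among 33469 promoter windows of the same length, 13.8% held GGGTCA. The Fabp1 window held the letters TGACCTATGGCCT, which read on the other strand are the direct repeat AGGNCANAGGNCA, and it began 77 bases before the start. That repeat was found in 0.415% of the windows, and the stricter AGGTCANAGGTCA in 0.0538%. AGGTCA alone, found in 16.2% of windows, lay on the minus strand within the Fabp1 repeat and also in the windows of Slc27a1 and Slc27a2, 242 and 76 bases before the start. None of these letters was in the windows of Slc27a3, Slc27a4, Cd36 or Fabp3. These are matches of letters and not measured binding sites.

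Acsbg1, an acyl-CoA synthetase of the bubblegum family that activates long-chain and very long-chain fatty acids and is best known from brain, adrenal and gonads, showed the largest difference between the lines of the 4 tested genes. In EV cells without pioglitazone it had 3, 3 and 2 counts in replicates 1, 2 and 3, and in EV cells with pioglitazone 3, 0 and 0. In PPFP cells without pioglitazone it had 109, 104 and 70 counts, or 3.999, 3.845 and 2.955 CPM. In PPFP cells with pioglitazone it had 134, 157 and 169 counts, or 5.06, 5.86 and 5.60 CPM. Every PPFP library was above every EV library, and both EV groups lay at the floor of 3 counts per library. Against that floor, the mean of the PPFP group without pioglitazone, 3.60 ± 0.564 CPM (SD, n = 3), was at least 35.6-fold higher. With pioglitazone, the mean of 5.51 ± 0.404 CPM (SD, n = 3) was at least 58.0-fold higher. Acsbg1 passed the filter on low counts only through the PPFP libraries, so its call between the lines is given as a description.

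Within PPFP cells, Acsbg1 was also higher with than without pioglitazone, and the groups did not overlap. The ratio of CPM with over without the drug was 1.27, 1.52 and 1.89 in replicates 1, 2 and 3. The log2 fold change was 0.61 ± 0.15 (SE, 95% confidence interval 0.25 to 0.98, edgeR adjusted p = 0.0420). With the replicate number as a block, which fits experiments run side by side, the adjusted p was 0.00025, in a fit that called 51.6% of all genes. Replicates 2 and 3 of PPFP cells are not clearly paired by their numbers, which limits these ratios and this block. The call was lost with libraries 2 and 3 of PPFP cells with pioglitazone averaged (log2 fold change 0.58, adjusted p = 0.148) and when any 1 PPFP library other than replicate 1 without pioglitazone was left out, with adjusted p between 0.0431 and 0.154 over the 6 libraries. It was also lost with all 12 libraries in one fit (adjusted p = 0.155) and with scaling by library size alone (adjusted p = 0.0606). In EV cells Acsbg1 lay at the floor and was removed by the filter (edgeR adjusted p = 1 without the filter), so its response there, and the difference in response between the lines, could not be measured.

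**Figure D1:**
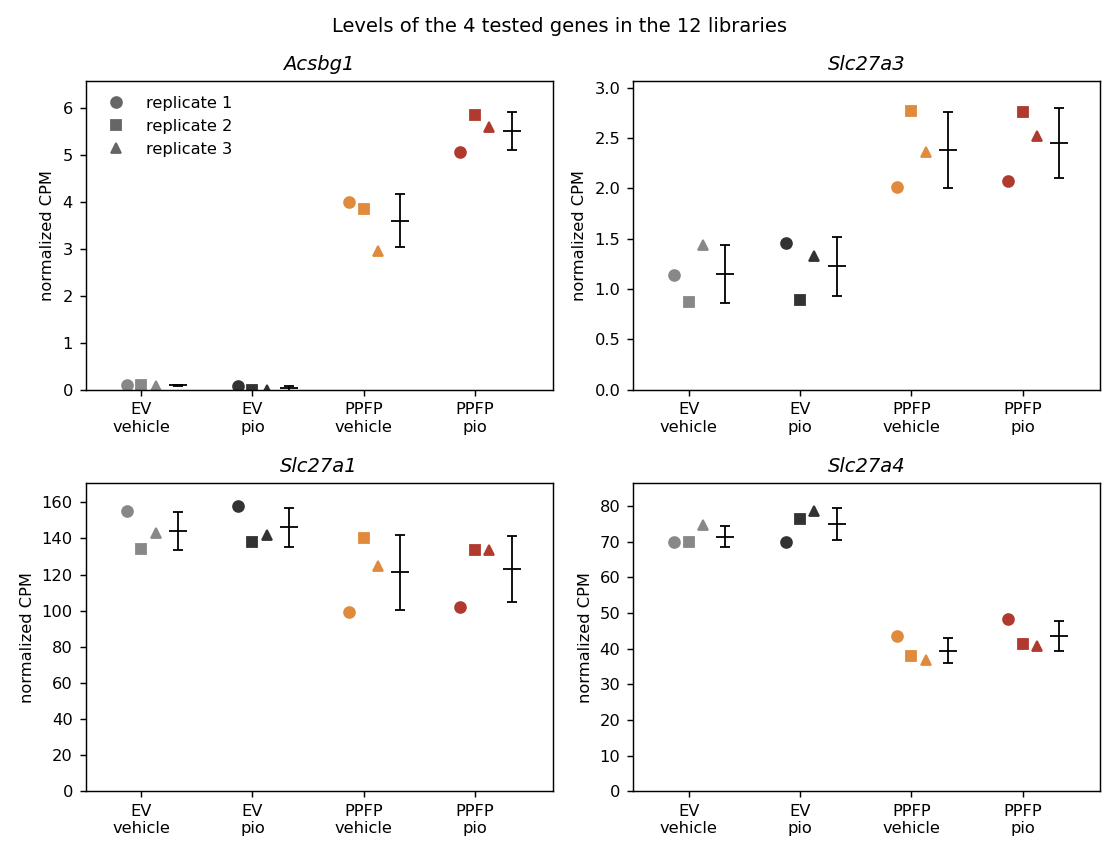
Levels of Acsbg1, Slc27a3, Slc27a1 and Slc27a4 in normalized CPM on the vertical axes, in EV and PPFP cells with vehicle or pioglitazone (pio). Each point is a library, its shape the replicate, and the black bars give the mean and SD of 3 libraries. Acsbg1 lies near 0 in the EV libraries and between 2.96 and 5.86 CPM in the PPFP libraries, and Slc27a4 lies between 69.8 and 78.6 CPM in EV libraries and between 36.8 and 48.3 CPM in PPFP libraries.

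Slc27a4 encodes FATP4, a fatty acid transport protein and very long-chain acyl-CoA synthetase of the endoplasmic reticulum that is known for its role in skin and intestine. Its level was 69.8, 69.8 and 74.7 CPM in EV cells without pioglitazone and 69.9, 76.3 and 78.6 CPM with it. In PPFP cells it was 43.4, 38.1 and 36.8 CPM without and 48.3, 41.4 and 40.7 CPM with pioglitazone. The 6 PPFP libraries were all below the 6 EV libraries. Without pioglitazone, Slc27a4 was 1.78-fold lower in PPFP cells (log2 fold change -0.84 ± 0.088, SE, edgeR adjusted p = 0.000265). With pioglitazone it was 1.69-fold lower (log2 fold change -0.76 ± 0.090, SE, edgeR adjusted p = 0.000417, or -0.74 and 0.00339 with libraries 2 and 3 averaged).

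The response of Slc27a4 to pioglitazone was small. In PPFP cells, the ratio with over without the drug was 1.11, 1.09 and 1.11 in replicates 1, 2 and 3. The log2 fold change was 0.14 (95% confidence interval -0.074 to 0.36) and did not pass the threshold in the unblocked fit (edgeR adjusted p = 0.365). With libraries 2 and 3 averaged it was 0.18 (adjusted p = 0.406). With the replicate block it was 0.14 with an adjusted p of 0.0160, and Slc27a4 was then called, as were 51.6% of all genes. That block rests on numbers that do not clearly pair replicates 2 and 3 of PPFP cells. In EV cells the log2 fold change was 0.066 (95% confidence interval -0.11 to 0.24).

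Slc27a3, or FATP3, is a family member known mainly as an acyl-CoA synthetase rather than as a transporter, and it was measured at low levels. It had 34, 26 and 42 counts in EV cells without pioglitazone and 54, 28 and 37 counts with it, which is between 0.870 and 1.46 CPM. In PPFP cells it had 55, 75 and 56 counts without and 55, 74 and 76 counts with pioglitazone, between 2.02 and 2.77 CPM. The 6 PPFP libraries were all above the 6 EV libraries on the CPM scale. Without pioglitazone, Slc27a3 was 2.11-fold higher in PPFP cells (log2 fold change 1.08 ± 0.25, SE, edgeR adjusted p = 0.00981), and with pioglitazone 2.03-fold higher (log2 fold change 1.02 ± 0.24, SE, edgeR adjusted p = 0.0103). These values lie at the 2-fold limit, and Slc27a3 fell under it with libraries 2 and 3 of PPFP cells with pioglitazone averaged, at a log2 fold change of 0.94 (adjusted p = 0.0413). The pioglitazone responses were 0.044 on the log2 scale in PPFP cells (95% confidence interval -0.41 to 0.50) and 0.097 in EV cells (95% confidence interval -0.58 to 0.77), with intervals that include 0. With libraries 2 and 3 averaged, the response in PPFP cells was -0.017.

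Slc27a1, or FATP1, is the transport protein of muscle and adipose tissue that responds to insulin, and it was the tested gene with the smallest difference between the lines. EV cells had 155, 134 and 143 CPM without and 158, 138 and 142 CPM with pioglitazone. PPFP cells had 99.1, 140 and 125 CPM without and 102, 134 and 134 CPM with pioglitazone. Replicate 1 was the lowest library in both PPFP groups and the highest in both EV groups. The log2 fold change of PPFP versus EV cells was -0.23 without pioglitazone (95% confidence interval -0.54 to 0.091, edgeR adjusted p = 0.213). With pioglitazone it was -0.22 (95% confidence interval -0.52 to 0.088, adjusted p = 0.198, or -0.31 and 0.136 with libraries 2 and 3 averaged), although the levels of the groups did not overlap. The response to pioglitazone was 0.027 in PPFP cells (95% confidence interval -0.37 to 0.43) and 0.017 in EV cells (95% confidence interval -0.20 to 0.24) on the log2 scale, so that a change above 1.5-fold lies outside both intervals. With libraries 2 and 3 averaged, the response in PPFP cells was -0.040.

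**Figure D2:**
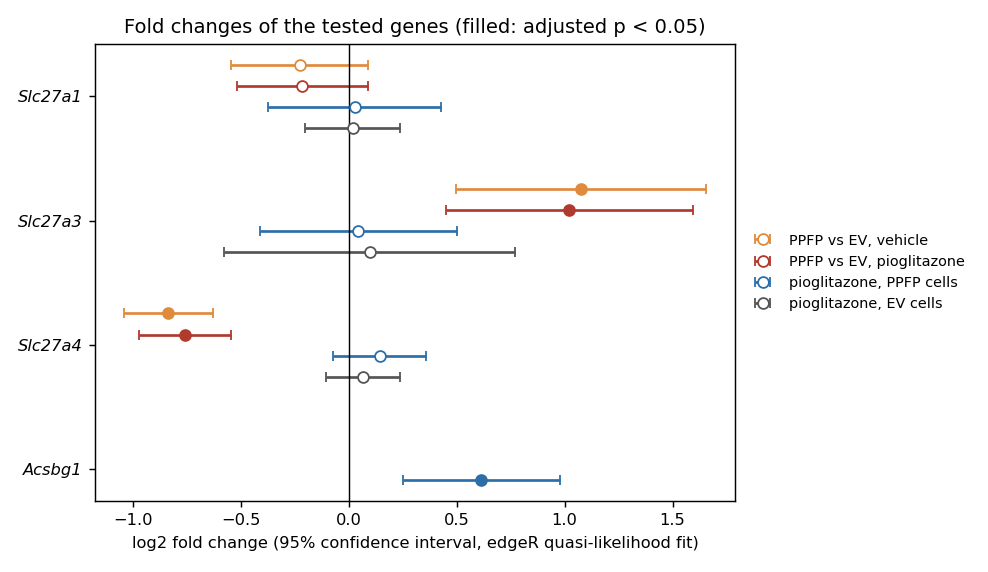
Log2 fold change on the horizontal axis of the 4 tested genes in 4 comparisons, with 95% confidence intervals from the edgeR fit on 6 libraries each, where filled points passed an adjusted p of 0.05. Acsbg1 is shown only for pioglitazone in PPFP cells (0.61), because EV cells lie at the floor. Slc27a3 lies to the right of 0 and Slc27a4 to the left in both comparisons of the lines, and their intervals for pioglitazone include 0.

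The remaining genes were at or near 0. Fabp1, the liver fatty acid binding protein, and Slc27a2, the very long-chain acyl-CoA synthetase of liver and kidney, had 0 counts in all 12 libraries. In 345949205 counts, 0 allows a level of up to 0.0087 CPM by the limit of 3 counts, for counting error only. Fabp4, the adipocyte fatty acid binding protein, had 5, 1 and 2 counts in replicates 1, 2 and 3 of PPFP cells with pioglitazone, 1 count in replicate 1 of EV cells with pioglitazone, and 0 in the other 8 libraries. Cd36 had 1, 2 and 1 counts in PPFP cells with pioglitazone and 0 in the other 9 libraries. For both genes, the few counts lay mostly in 1 of the 4 groups, PPFP cells with pioglitazone. Fabp3, the heart and muscle fatty acid binding protein, had 3, 2 and 2 counts in EV cells without pioglitazone and at most 2 counts in any other library, 14 in all.

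The usual filter removed these genes from the tests. In a fit of every gene with at least 1 count, Fabp4 had an edgeR adjusted p of 0.0842 in PPFP versus EV cells with pioglitazone and 0.165 in PPFP cells with versus without the drug. Cd36 had 0.0787 and 0.199 in the same comparisons, and Fabp3 had 0.25 to 1 in the comparisons. Unadjusted, p was 0.0413 and 0.0333 for Fabp4 and 0.0379 and 0.0458 for Cd36. At this depth no difference of Fabp3, Fabp4 or Cd36 passed the adjusted threshold, and Fabp1 and Slc27a2, with no count, were in no fit.

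**Figure D3:**
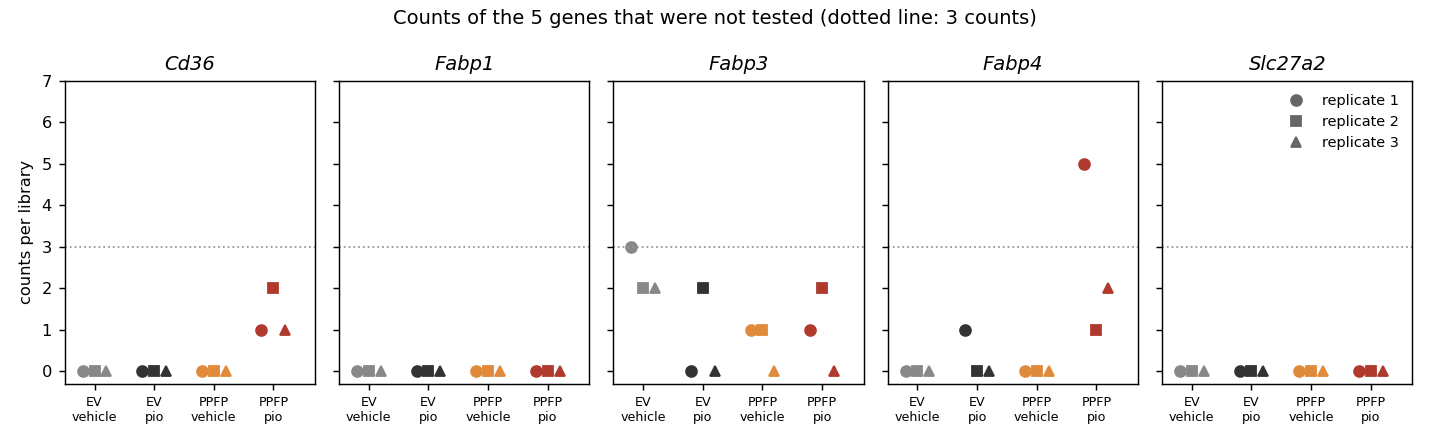
Counts per library of Cd36, Fabp1, Fabp3, Fabp4 and Slc27a2 on the vertical axis, by group and replicate, with a dotted line at 3 counts. Fabp1 and Slc27a2 lie at 0 throughout, and the highest value is the 5 counts of Fabp4 in replicate 1 of PPFP cells with pioglitazone.

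Counted over the tested genes, 3 of 4 were called in PPFP versus EV cells without pioglitazone, 2 higher and 1 lower, against 45.2% of all 10264 genes tested (22.0% higher and 23.1% lower). More than 2-fold, 2 of 4 were called, against 14.6%. With pioglitazone, the same 3 genes were called with the same directions, against 52.7% of 10291 genes (26.3% higher and 26.4% lower), and 2 more than 2-fold, against 19.7%. These counts include Acsbg1, which had to differ to be tested. With at least 10 counts required in every library Acsbg1 was not tested, and 2 of 3 genes were called without pioglitazone, 1 of them more than 2-fold. In PPFP cells with versus without pioglitazone, 1 of 4 was called and 0 more than 2-fold, against 14.8% and 2.42% of 10064 genes, or 7.63% for those that rose. With the replicate block, 2 of 4 were called, against 51.6% of all genes. In EV cells with versus without pioglitazone, 0 of 3 tested genes were called by edgeR, and 0 of all 10146 genes, with 16 at an unadjusted p under 0.05, far fewer than the 507 that 5% of these genes would make, so this fit was conservative. With the replicate block, which the paired libraries of EV cells allow, 605 genes had an unadjusted p under 0.05 and 0 of the 3 and 1 of all genes (0.00986%) were called. The difference in pioglitazone response between the lines was called by edgeR for 0 of 4, against 2.64% of 10482 genes, and 1 of the 4 had an unadjusted p under 0.05. That gene was Acsbg1, which was at the floor in both EV groups, so its p says nothing of a response in EV cells.

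For each of the 3 called genes, the 2 genes with the most similar level over the 12 libraries were taken from 9637 genes of at least 1 CPM on average, by Pearson's r of log2 CPM. For Acsbg1 these were Il17re (r = 0.989) and Psapl1 (r = 0.989). For Slc27a3 they were Csnk1g2 (r = 0.973) and Slc9a3r1 (r = 0.969). For Slc27a4 they were Ctdspl2 (r = 0.996) and Fbxl15 (r = 0.996). Psapl1, for example, was at 0.876 ± 0.256 CPM in EV cells against 26.6 ± 3.05 CPM in untreated and 54.5 ± 7.99 CPM in treated PPFP cells (SD, n = 3 each). The 12 libraries share 2 lines and 3 experiments, so these values describe a shared pattern over the groups.

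The near relatives of the 10 genes were as low as the genes near 0. None of the 9 relatives (Fabp2, Fabp6, Fabp7, Fabp9, Fabp12, Pmp2, Slc27a5, Slc27a6 and Acsbg2) passed the filter. Of these, 5 had no count in any library and 8 had at most 3 counts in every library.

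Among 5 long-chain acyl-CoA synthetases, which activate fatty acids of common length, 4 were tested in PPFP versus EV cells without pioglitazone, 2 were lower, 0 were higher and 2 were not called, where 45.2% of all genes were called and 23.1% were lower (median log2 fold change -0.33, all genes 0.0016). Acsl3, which resides on lipid droplets and the endoplasmic reticulum, fell from 128 ± 15.9 to 57.5 ± 5.46 CPM (SD, n = 3 each, log2 fold change -1.14 ± 0.12, SE, edgeR adjusted p = 0.000224), and the other was Acsl1 (-0.42, adjusted p = 0.00338). With pioglitazone only Acsl3 was called of the 4 (log2 fold change -1.02, edgeR adjusted p = 0.000371), against 52.7% of all genes called and 26.4% lower. Pioglitazone in PPFP cells gave no call among the 4 synthetases by edgeR, where 14.8% of all genes were called. Of these, Acsl1 had an unadjusted p of 0.0495. Acsl6 did not pass the filter between the lines. It had 8 to 10 counts in an EV library and 0 to 1 in a PPFP library without pioglitazone. With pioglitazone it had 8 to 17 and 0 to 2 counts.

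Of 6 acyl-CoA binding genes, 5 were tested, and in both comparisons of the lines 1 rose and 1 fell, against 45.2% of all genes called without and 52.7% with pioglitazone. Dbi, the acyl-CoA binding protein that holds activated fatty acids in the cytosol, rose without pioglitazone from 234 ± 58.7 to 375 ± 16.8 CPM (SD, n = 3 each, log2 fold change 0.70 ± 0.17, SE, edgeR adjusted p = 0.0116). It rose with pioglitazone in PPFP cells, to 525 ± 16.3 CPM (log2 fold change 0.49 ± 0.049, SE, edgeR adjusted p = 0.00198, or 0.0166 with libraries 2 and 3 averaged), but was not called with all 12 libraries in one fit (adjusted p = 0.181). Acbd4, an acyl-CoA binding domain protein, was lower in PPFP cells, by -0.97 on the log2 scale without (edgeR adjusted p = 0.00534) and -1.27 with pioglitazone (adjusted p = 0.00442).

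Of 10 genes of fatty acid delivery and other uptake, 9 had a row and 5 were tested between the lines without pioglitazone, of which 2 (Angptl4 and Cav1) were higher and 1 lower, against 22.0% and 23.1% of all genes. Lpl, the lipase that frees fatty acids from lipoproteins, and Gpihbp1, its anchor on capillaries, had at most 1 count in a library. Angptl4, a secreted inhibitor of lipoprotein lipase, rose in PPFP cells from 38.2 ± 10.2 to 181 ± 4.39 CPM without pioglitazone and reached 1049 ± 22.8 CPM with it (SD, n = 3 each). In log2 fold change, PPFP versus EV cells were at 2.27 ± 0.18 without (SE, edgeR adjusted p = 7.34e-05) and 4.50 ± 0.15 with pioglitazone (SE, adjusted p = 3.14e-06). Its pioglitazone response in PPFP cells was 2.54 ± 0.049 (SE, edgeR adjusted p = 9.8e-06, or 0.000371 with libraries 2 and 3 averaged), against 0.30 in EV cells. The responses of the lines differed by 2.22 ± 0.25 on the log2 scale (SE, edgeR adjusted p = 0.00111, or 0.00493 with libraries 2 and 3 averaged).

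Cav1, the caveolar coat protein caveolin, had 0 counts in the 3 EV libraries without pioglitazone and 30, 33 and 33 counts from the lowest to the highest PPFP library. It was at least 12.2-fold higher there and at least 5.38-fold higher with pioglitazone, a description only, since Cav1 passed the filter only through the PPFP libraries. In PPFP cells Cav1 was lower with pioglitazone, at 11 to 19 counts, by -1.28 ± 0.29 on the log2 scale (SE, edgeR adjusted p = 0.0302), a call lost with libraries 2 and 3 averaged (adjusted p = 0.112) and without library 2 or 3 of either PPFP group. The lysosomal membrane protein Scarb2, a relative of Cd36, was lower in PPFP cells by -0.77 without and -0.65 with pioglitazone (edgeR adjusted p = 0.00114 and 0.00293).

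Of 5 genes of mitochondrial entry, 3 rose, 1 fell and 1 was not called in PPFP versus EV cells without pioglitazone, where 22.0% of all genes were higher and 23.1% lower, and the median log2 fold change was 0.63 (all genes 0.0016). Slc25a20, the carnitine-acylcarnitine carrier, was at 51.4 ± 3.97 CPM in EV cells against 78.2 ± 2.76 CPM in untreated and 134 ± 5.78 CPM in treated PPFP cells (SD, n = 3 each). Its log2 fold change between the lines was 0.63 ± 0.086 without (SE, edgeR adjusted p = 0.000884) and 1.40 ± 0.085 with pioglitazone (SE, adjusted p = 2.08e-05). Cpt2, the inner membrane carnitine palmitoyltransferase, was higher by 0.84 without and 1.28 with pioglitazone (edgeR adjusted p = 0.00438 and 0.000287), and Cpt1b, the muscle form of the outer membrane enzyme, by 0.89 and 1.23 (adjusted p = 0.0164 and 0.000867). The liver form Cpt1a was the 1 that fell, by 0.39 on the log2 scale without pioglitazone (edgeR adjusted p = 0.00989), a call lost without replicate 2 (adjusted p = 0.0511) or replicate 3 (adjusted p = 0.0616) of PPFP cells.

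In PPFP cells with versus without pioglitazone, 3 of the 5 genes of mitochondrial entry rose and 0 fell, by edgeR: Slc25a20 by 0.78, Cpt1a by 0.62 and Cpt2 by 0.41 (adjusted p = 0.000465, 0.00441 and 0.0156). Of all genes, 7.63% rose in that comparison. Cpt2 was not called with libraries 2 and 3 averaged (adjusted p = 0.0544), with all 12 libraries in one fit (0.154), or without replicate 2 (0.0765) or 3 (0.0795) of untreated or replicate 3 (0.0702) of treated PPFP cells. The brain form Cpt1c was the 1 of these genes called lower between the lines with pioglitazone (-0.57, edgeR adjusted p = 0.0338), and it was called in 6 of 15 alternatives only (adjusted p = 0.0714 with libraries 2 and 3 averaged). Acsl1, Acsl6, Scarb2, Cpt1a, Cpt1c, Ppard, Lpl, Gpihbp1 and the marker genes were named after their values were seen. Beside these changes of line, the summed adipocyte markers were higher in every PPFP library than in every EV library, and their part in the differences was not tested.

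**Figure D4:**
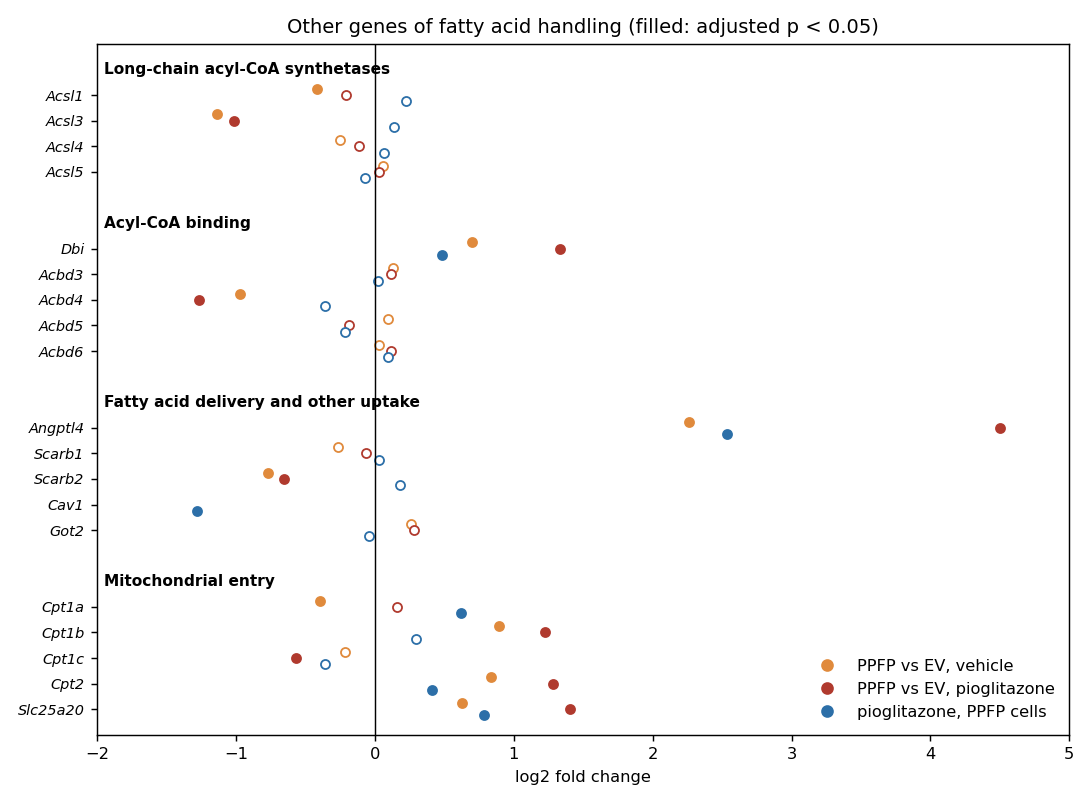
Log2 fold change on the horizontal axis of the tested genes of 4 lists, for PPFP versus EV cells with vehicle or pioglitazone and for pioglitazone in PPFP cells, where filled points passed an adjusted p of 0.05. Cav1 is shown only for pioglitazone, because EV cells lie at the floor. Angptl4 lies farthest to the right, at 4.50 between the lines with pioglitazone, and Acsl3 lies left of 0 in both comparisons of the lines.

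Receptors known to bind such half-sites were measured in the same libraries. Besides Pparg, 2 of the 7 genes on a list of these receptors and Pax8 rose in PPFP versus EV cells without pioglitazone and 1 fell, by edgeR, where 45.2% of all genes were called. Rxrg, a partner of PPARG, had 64 to 99 counts in PPFP cells and 0 to 5 in EV cells, and it too passed the filter only through the PPFP libraries. Ppard rose by 0.52 on the log2 scale (edgeR adjusted p = 0.00145). Rxra, the common partner, fell from 20.9 ± 1.08 to 9.04 ± 0.943 CPM (SD, n = 3 each, log2 fold change -1.18 ± 0.12, SE, edgeR adjusted p = 0.000213). With pioglitazone, Rxrg was at least 52.0-fold higher and Rxra was lower by -1.24 (edgeR adjusted p = 0.000244). Pax8 was lower with than without pioglitazone in PPFP cells, by -0.33 on the log2 scale (edgeR adjusted p = 0.00483), and lower in PPFP than in EV cells with pioglitazone, by -0.39 (adjusted p = 0.00704). With libraries 2 and 3 averaged, Acsl3, Dbi, Acbd4, Angptl4, Scarb2, Cpt1b, Cpt2, Slc25a20, Pparg, Ppard, Rxra and Pax8 remained called between the lines with pioglitazone, with edgeR adjusted p between 2.58e-05 and 0.0311. In PPFP cells with versus without the drug, Slc25a20, Cpt1a and Pax8 also remained called (adjusted p = 0.00657, 0.0226 and 0.0325).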

How the data were processed

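RNA was measured by paired-end sequencing, and reads were aligned by the authors to rn4 with TopHat2 2.0.11 and counted per gene with HTSeq 0.6.1p1 in the strict intersection mode. The deposited values are whole, unnormalized counts per gene symbol. The counting was not stated to use strand. Genes were kept with filterByExpr, scaled with TMM and tested with edgeR 4.0.16 (quasi-likelihood, R 4.3.3) on the 6 libraries of the groups compared, or on 12 for the difference in response, with Benjamini-Hochberg adjustment over all genes tested. SE was taken from the fold change and F statistic. Total counts per library were 23724703 to 35240176. A group was at the floor when every library had at most 3 counts, and folds against it use 3 counts per library. The code was tested on simulated counts. Motifs were matched with Python 3.11.15, and figures were drawn with matplotlib 3.10.9.

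Alternatives were the edgeR exact test, DESeq2 1.42.0, RLE scaling, library size alone, no filter, at least 10 counts in every library, a single fit of the 12 libraries, the replicate block, leaving out each library, and a 1.5-fold limit. Libraries 2 and 3 of PPFP cells with pioglitazone averaged was an alternative chosen after seeing the data. The 3 experiments were independent and each was run together. Same-numbered libraries of a line deviated together (r = 0.811, 0.562 and 0.517 in PPFP cells, and 0.615, 0.804 and 0.854 in EV cells). In EV cells differently numbered libraries did not (r = -0.779 to -0.0479), so numbers pair the libraries there. In PPFP cells treated library 3 also deviated with untreated library 2 (r = 0.658), and treated 2 with untreated 3 (r = 0.437). The numbers therefore do not settle how libraries 2 and 3 of PPFP cells pair. p-values measure the spread between these experiments on 1 line each. The 10 genes and the lists were chosen with earlier results of these data known. The genes named were all 10, list genes called more than 2-fold in any comparison, Pparg and Pax8, and for each called gene of the 10 the 2 most similar genes. A few others were named after their values were seen. A list and its called gene are not reported here. The ChIP peak lists, in rn4 positions, were not used here.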

Additional observations from a re-analysis of the deposited data

Results flagged for a closer look

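Among the genes of fatty acid handling, 3 differed in their pioglitazone response between PPFP and EV cells by the interaction term of the edgeR fit on 12 libraries. They were 1 of 5 tested genes of delivery and other uptake and 2 of 5 of mitochondrial entry, against 2.64% of all genes. Of 5 long-chain acyl-CoA synthetases and 5 acyl-CoA binding genes tested, 0 were called. Of the 10 fatty acid uptake and binding genes 4 were tested for this difference in response and 0 were called by edgeR, against 2.64% of all genes. At an unadjusted p under 0.05 there was 1, Acsbg1, which was at the floor of 3 counts in both EV groups, so its p says nothing of a response in EV cells. Angptl4 responded more in PPFP cells, by 2.22 on the log2 scale (adjusted p = 0.00111), and over 19 alternatives the adjusted p was between 5.66e-15 and 0.00585. Slc25a20 responded more in PPFP cells, by 0.76 (adjusted p = 0.00419), with an adjusted p between 5.66e-08 and 0.0197 over the alternatives. Cpt1a responded more in PPFP cells, by 0.54 (adjusted p = 0.0338), but it was called in 8 of 19 alternatives, with an adjusted p between 2.61e-06 and 0.107, and not when any 1 of 9 of the 12 libraries was left out (all but replicate 2 of EV cells and replicate 1 of PPFP cells without pioglitazone and replicate 3 of EV cells with it), nor with libraries 2 and 3 of PPFP cells with pioglitazone averaged (0.57, adjusted p = 0.0667).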

How the results depend on the processing

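The calls of Slc27a3 and Slc27a4 between the lines held, with their directions, in every alternative run. Acsbg1 was called in every alternative that tested it, but it was tested only through its PPFP counts. Scaling by library size alone moved the median log2 fold change of all genes from 0.012 to -0.12 in PPFP versus EV cells with pioglitazone. It changed the split of calls from 2708 higher and 2717 lower to 2048 and 3543, and without pioglitazone from 2259 and 2376 to 1884 and 2920. Relative to that median, the directions of Slc27a3, Slc27a4 and Acsbg1 were as given.

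The count of the 10 genes called more than 2-fold between the lines turned on Slc27a3, which lies at that limit, and on Acsbg1, which was not tested with at least 10 counts in every library. Without pioglitazone it was 2, and 1 with library size alone or at least 10 counts in every library, and 1 to 2 with a library left out (1 without replicate 2 of EV or of PPFP cells). With pioglitazone it was 2, and 1 with library size alone, without the filter or with libraries 2 and 3 averaged, 0 with at least 10 counts, and 1 to 2 with a library left out (1 without replicate 2 of EV cells, or 2 or 3 of PPFP cells). In the pioglitazone response of PPFP cells 1 gene was called, 0 with library size alone, with all 12 libraries or with libraries 2 and 3 averaged, 2 with the replicate block (which called 51.6% of all genes, against 14.8% without it), and 0 to 1 with a library left out. More than 1.5-fold, 1 gene was called. The block changed no other call of the 10 genes. Same-numbered libraries of different lines deviated together only for replicate 2 (r = -0.268, 0.383 and -0.378 for replicates 1, 2 and 3 without pioglitazone). Replicate 1 of PPFP cells went with replicate 3 of EV cells (r = 0.566). The numbers therefore do not settle a pairing across the lines, and the block between the lines left 3 of the genes called.

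Only responses that were never called changed sign. In PPFP cells, Slc27a1 went from 0.027 to -0.024 with library size alone and -0.040 with libraries 2 and 3 averaged, and ranged from -0.12 to 0.14 with a library left out. Slc27a3 went from 0.044 to -0.0052 and -0.017, and ranged from -0.088 to 0.15. In EV cells, with a library left out, Slc27a1 ranged from -0.050 to 0.080 and Slc27a3 from -0.069 to 0.29. For the difference in response, Slc27a1 went from -0.0052 to 0.0027 with DESeq2, 0.0027 with RLE and 0.0030 without the filter. With a library left out it ranged from -0.13 to 0.12, Slc27a3 from -0.24 to 0.094 and Slc27a4 from -0.017 to 0.14. The cause was not tested. Depth limits Cd36, Fabp3 and Fabp4, which had 0 to 5 counts per library and no call in the fit without the filter.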
